A study of Homo sapiens with 6 samples.

Results

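CPS1, CKB, CA2, CERS4, ATP2A3 and B4GALNT4 are 5 metabolic enzymes and a calcium pump whose levels stood out between A549-TIPARP and A549-GFP cells. They are 6 of the 53826 gene entries of the tables and 6 of the 13181 entries analysed, which had a TPM above 2 in at least 1 library. The genes were chosen by the difference of their mean log2 TPM between these same libraries, so their differences are given as a description, with no test. The A549 line comes from a human lung adenocarcinoma. A549-TIPARP cells stably overexpressed TIPARP, a mono-ADP-ribosyltransferase, from a pMXs retroviral vector carrying its coding region, which was amplified from cDNA of A549-OKS cells, and A549-GFP cells carried GFP in the same vector. Each line was sequenced in 3 bulk RNA libraries, and the text of the study does not say whether the libraries came from separate cultures, so the spread between them may be technical. The methods describe retroviral transduction and name no clone.

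The 6 genes act in separate parts of metabolism. CPS1 makes carbamoyl phosphate from ammonia and bicarbonate in mitochondria and is the entry step of the urea cycle, best known from liver but also expressed in part of lung adenocarcinomas. CKB, the brain type creatine kinase, moves phosphate between ATP and creatine in the cytosol. CA2 is a cytosolic carbonic anhydrase that interconverts carbon dioxide and bicarbonate. CERS4 is a ceramide synthase of the endoplasmic reticulum that joins a fatty acyl chain to a sphingoid base. ATP2A3 encodes SERCA3, which pumps calcium from the cytosol into the endoplasmic reticulum. B4GALNT4 transfers N-acetylgalactosamine to N-acetylglucosamine on glycans, which forms the LacdiNAc unit.

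Promoter sequence was available for CKB, B4GALNT4 and CPS1 in the RefSeq table (GRCh38.p14), which gives the 250 bases before and the 50 bases after a start site, 5′ to 3′ on the strand of the gene. They are shown because no window was available for the other members, and for CPS1 the window at its first start is shown. CKB and B4GALNT4 stood higher in every A549-TIPARP library, and CPS1 had the lower mean there. Capitals mark GGGCGG or its reverse complement CCGCCC, the GC box.
CKB, chr14:103522781-103523080, minus strand: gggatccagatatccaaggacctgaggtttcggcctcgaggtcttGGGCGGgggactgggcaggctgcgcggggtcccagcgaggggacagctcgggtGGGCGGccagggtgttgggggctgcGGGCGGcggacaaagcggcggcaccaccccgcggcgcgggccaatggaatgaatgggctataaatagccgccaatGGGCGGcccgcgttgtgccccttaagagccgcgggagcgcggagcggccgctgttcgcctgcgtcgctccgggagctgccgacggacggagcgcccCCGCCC
B4GALNT4, chr11:369249-369548, plus strand: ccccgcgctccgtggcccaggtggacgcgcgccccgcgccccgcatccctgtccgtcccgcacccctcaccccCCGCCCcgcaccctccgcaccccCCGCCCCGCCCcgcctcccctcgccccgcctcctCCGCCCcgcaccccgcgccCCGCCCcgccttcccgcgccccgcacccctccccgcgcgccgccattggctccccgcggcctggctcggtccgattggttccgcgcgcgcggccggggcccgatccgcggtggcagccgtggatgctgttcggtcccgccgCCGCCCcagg
CPS1, chr2:210477435-210477734, plus strand: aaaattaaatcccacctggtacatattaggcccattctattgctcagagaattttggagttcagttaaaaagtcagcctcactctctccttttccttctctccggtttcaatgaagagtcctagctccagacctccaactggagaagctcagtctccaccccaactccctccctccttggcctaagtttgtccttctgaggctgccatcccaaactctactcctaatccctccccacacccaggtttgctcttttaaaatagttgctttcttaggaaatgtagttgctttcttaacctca
The CKB window was 72.3% G or C and held 5 GC boxes and 1 TATAAA. The B4GALNT4 window was 83.7% G or C and held 6 GC boxes, of which 2 overlap each other by a base. The CPS1 window at the first start of the gene was 45.3% G or C and held no GC box. For 2 further CPS1 starts of the table the share of G or C was 40.3% and 36.7%, and neither held a GC box. Over the 10344 analysed genes with a window, the median was 65.3% G or C (quartiles 58.7% and 72.0%). A GC box on either strand occurred in 70.1% of those windows and in 45.0% of all 35116 windows of the table. The letters GCGTG or CACGC, the core of the motif that the aryl hydrocarbon receptor binds, occurred in none of these 5 windows, in 36.5% of all windows and in 50.9% of those of analysed genes. CCAAT or ATTGG occurred 2 times in the CKB window, 2 times in the B4GALNT4 window and 1 time in the CPS1 window with 40.3% G or C. At least 1 occurred in 34.6% of all windows and in 36.7% of those of analysed genes. TATAAA or TTTATA occurred in 11.5% of all windows and in 5.66% of those of analysed genes. A match, or its absence, in such a window is a description of the letters only.

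The tables give log2 TPM, and TPM corrects for transcript length, so levels can be compared between genes. TPM below 1 had been set to 1, and TPM keeps no depth, so no counting error can be given. The TPM of TIPARP was 6.79, 11.4 and 3.68 in replicates 1, 2 and 3 of A549-GFP and 131, 90.5 and 123 in replicates 1, 2 and 3 of A549-TIPARP, so every library labelled A549-TIPARP was above every library labelled A549-GFP. All 6 epithelial markers and all 5 markers of the NRF2-active state of A549 cells were found in both lines. All 5 endothelial markers were at the floor in every library. Of the 5 mesenchymal markers 3 were at the floor throughout, and the summed level of the list was at most 1.44 TPM in A549-GFP and 2.56 TPM in A549-TIPARP. Of the 3 leukocyte markers PTPRC and CD3E were at the floor throughout, and CD68, a lysosomal protein, had 28.1, 68.1 and 30.0 TPM in replicates 1, 2 and 3 of A549-GFP and 25.03, 26.2 and 36.0 TPM in those of A549-TIPARP. A549-GFP replicate 2 stood apart from its line, with a root mean square deviation from the line mean of 0.621 on the log2 scale against 0.185 to 0.400 in the other 5 libraries. It also had the lowest KRT8 and KRT18 of the 6 libraries, and its summed epithelial list was 10774 TPM against at least 18544 TPM in each A549-TIPARP library. A549-TIPARP replicate 3 deviated most within its own line, at 0.330, and had the lowest KRT8 and KRT18 of that line. Values without A549-GFP replicate 2 are therefore given beside each of the 6 genes, and for some of the other genes.

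Of the 6 genes, CKB, CERS4, ATP2A3 and B4GALNT4 had a mean more than 2-fold higher in A549-TIPARP cells, as did 1.53% of the analysed genes. CA2 had a mean more than 2-fold lower, as did 0.432% of the analysed genes, so 5 of the 6 were past 2-fold against 1.96% of all. These counts follow from how the genes were named and carry no further weight. The libraries of the lines did not overlap for CKB, ATP2A3 and B4GALNT4 (all A549-TIPARP libraries above all A549-GFP libraries, 5.36% of the analysed genes) and for CA2 (all below, 3.54%). Hence 4 of the 6 did not overlap, against 8.91% of all, and CPS1 and CERS4 did. These counts too follow from the choice of the genes by their difference in these libraries and carry no further weight. With all libraries CPS1 lay just inside 2-fold, at an absolute log2 difference of 0.96, and the next were CKB at 1.34 and CERS4 at 1.35, but the order of the 6 genes by difference was not stable. Without A549-GFP replicate 3 CERS4 (1.18) was below CPS1 (1.28), and without A549-TIPARP replicate 3 it was so again (1.03 against 1.15). In bulk RNA, fewer cells that express a gene and less RNA per cell cannot be told apart.

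**Figure D1:**
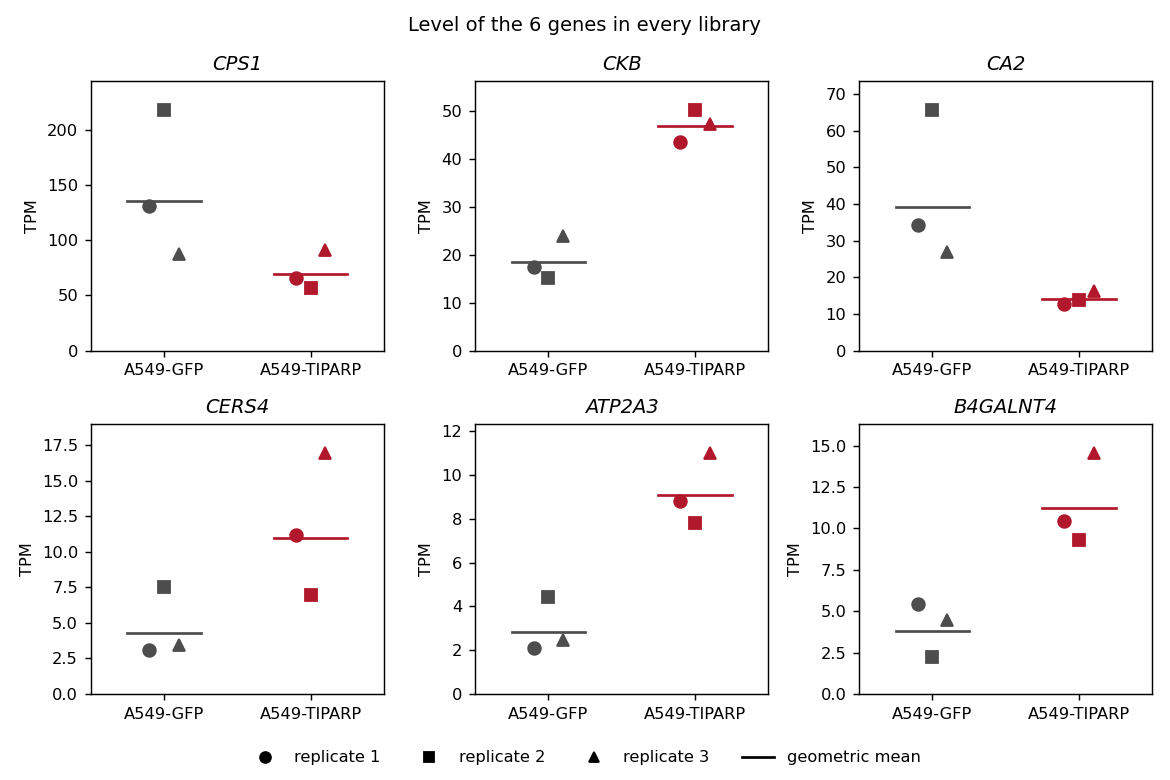
TPM of the 6 genes (linear axes from 0) in the 3 A549-GFP libraries (grey) and the 3 A549-TIPARP libraries (red), with a symbol for each replicate number and a line at the geometric mean of the line. CKB, ATP2A3 and B4GALNT4 are higher and CA2 is lower in every A549-TIPARP library, while CPS1 (87.1 against 91.2 TPM) and CERS4 (7.51 against 6.95 TPM) overlap.

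CPS1 (Entrez Gene ID 1373, hg38 chromosome 2, 210477682 to 210679107, plus strand, 38 exons in the canonical transcript) was the most abundant of the 6 genes. Its TPM was 131, 218 and 87.1 in replicates 1, 2 and 3 of A549-GFP and 65.6, 56.8 and 91.2 in replicates 1, 2 and 3 of A549-TIPARP. A549-GFP replicate 2 was the highest, and A549-TIPARP replicate 3 reached above A549-GFP replicate 3, so the lines overlapped. The mean log2 TPM was 7.08 ± 0.66 (SD, n = 3) in A549-GFP and 6.13 ± 0.35 (SD, n = 3) in A549-TIPARP, a difference of -0.96, or 1.94-fold lower. Without A549-GFP replicate 2 the difference was -0.61, whereas it was past 2-fold without A549-GFP replicate 3 (-1.28) or without A549-TIPARP replicate 3 (-1.15). Among the 13181 genes CPS1 ranked from 642 to 1484 by TPM in the A549-GFP libraries and from 1378 to 2408 in the A549-TIPARP libraries, with rank 1 the highest.

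The other genes of the urea cycle and of ammonia handling were measured in the same libraries. OTC, which uses the carbamoyl phosphate made by CPS1, and ARG1, the liver arginase, were at the floor in all 6 libraries. NAGS, which makes the activator of CPS1, did not pass the filter, with a mean of 1.27 TPM. The next enzymes of the cycle were well above the floor. ASS1, argininosuccinate synthase, had 22.0, 75.0 and 18.4 TPM in A549-GFP and 28.8, 17.8 and 66.7 TPM in replicates 1, 2 and 3 of A549-TIPARP. ASL, argininosuccinate lyase, had from 49.7 to 54.7 TPM in A549-GFP and from 47.9 to 72.6 TPM in A549-TIPARP. ASS1 varied more within each line than between the lines. CAD, which holds the cytosolic carbamoyl phosphate synthetase of pyrimidine synthesis, had a log2 difference of -0.15. The most abundant of the other genes were ODC1 of polyamine synthesis with a mean of 153 TPM, OAT, ornithine aminotransferase, with 122 TPM, and GLUD1, glutamate dehydrogenase, with 60.8 TPM. Their log2 differences were -0.44, -0.60 and 0.03. OAT resembled CPS1 in A549-GFP, with 259 TPM in replicate 2 against 112 and 86.4 TPM in replicates 1 and 3. Of the 14 other analysed genes of the list, 6 had a higher and 8 a lower mean in A549-TIPARP, where 40.1% of all analysed genes had a higher mean. With all libraries none of the 14 was past 2-fold, and the median log2 difference was -0.08, against -0.07 over all analysed genes. Leaving out A549-GFP replicate 2 gave a median of 0.05, against 0.05 over all analysed genes, and took OAT to -0.13 and ASS1 from 0.05 to 0.69. GLUL, glutamine synthetase, which was at the floor in the other two A549-GFP libraries, then went from 0.89 to 1.33, past 2-fold. GLUL was also past 2-fold without A549-TIPARP replicate 1 (1.04) or 2 (1.14).

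CKB (Entrez Gene ID 1152, chromosome 14, 103519667 to 103522833, minus strand, 8 exons) was the steadiest of the 6 genes within a line. Its TPM was 17.4, 15.1 and 24.0 in replicates 1, 2 and 3 of A549-GFP and 43.4, 50.2 and 47.2 in replicates 1, 2 and 3 of A549-TIPARP. The lowest A549-TIPARP library stood well above the highest A549-GFP library. The mean log2 TPM was 4.21 ± 0.34 (SD, n = 3) and 5.55 ± 0.11 (SD, n = 3), a difference of 1.34, or 2.54-fold higher in A549-TIPARP. The difference was 1.20 without A549-GFP replicate 2. The SD of CKB was close to that of genes of the same decile of expression in A549-GFP (median 0.35) and below it in A549-TIPARP (median 0.16).

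CKB was the main cytosolic creatine kinase read out here, since CKM, the muscle type, and CKMT2, the sarcomeric mitochondrial type, were at the floor in all 6 libraries. The ubiquitous mitochondrial creatine kinase is encoded by CKMT1A and CKMT1B, near-identical copies whose reads could be split between them, so their separate values are uncertain. CKMT1A had 9.71, 15.6 and 9.61 TPM in A549-GFP and 7.06, 8.22 and 7.78 TPM in replicates 1, 2 and 3 of A549-TIPARP, a log2 difference of -0.56. CKMT1B had a log2 difference of -0.65. Both were lower in every A549-TIPARP library, the opposite side from CKB, with a limma adjusted p of 0.994 for each, and both stood at -0.33 when A549-GFP replicate 2 was left out. GAMT, which completes creatine synthesis, had a mean of 30.9 TPM, a log2 difference of 0.40 and lines that overlapped. GATM, which carries out the step before it, had a log2 difference of 0.19. SLC6A8, the creatine transporter, had 3.71, 3.45 and 4.46 TPM in A549-GFP and 5.71, 4.74 and 7.72 TPM in A549-TIPARP, with no overlap. Its log2 difference was 0.62 on the deposited scale and 0.52 (SE 0.24) on log2(TPM + 1), with a limma adjusted p of 0.994. None of the 5 other analysed creatine genes was past 2-fold.

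CA2 (Entrez Gene ID 760, chromosome 8, plus strand, 7 exons) was the only one of the 6 with a mean more than 2-fold lower in A549-TIPARP. Its TPM was 34.2, 65.7 and 26.9 in replicates 1, 2 and 3 of A549-GFP and 12.8, 13.7 and 16.4 in replicates 1, 2 and 3 of A549-TIPARP. Every A549-TIPARP library was below every A549-GFP library. The mean log2 TPM was 5.30 ± 0.67 (SD, n = 3) and 3.83 ± 0.18 (SD, n = 3), a difference of -1.46, or 2.76-fold lower. A549-GFP replicate 2 stood 1.11 above the mean of the other two A549-GFP libraries, and without it the difference was -1.09. CA2 and CKB stood in opposite orders in the lines, as CA2 was above CKB in each A549-GFP library and below it in each A549-TIPARP library.

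None of the other analysed carbonic anhydrases had a mean more than 2-fold lower. CA12, a membrane-bound form with its active site outside the cell, was the most abundant, with 269, 421 and 206 TPM in A549-GFP and 226, 249 and 280 TPM in A549-TIPARP, a log2 difference of -0.19. CA9, the hypoxia-induced membrane form, had from 61.8 to 109 TPM in A549-GFP and from 64.9 to 72.9 TPM in A549-TIPARP, a log2 difference of -0.25. CA13, a cytosolic form whose gene lies 180 kb before CA2, had 4.35, 9.38 and 3.06 TPM in A549-GFP and 3.14, 3.41 and 3.59 TPM in A549-TIPARP. The log2 difference was -0.57, with overlapping lines, and -0.11 when A549-GFP replicate 2 was left out. CA11, a carbonic anhydrase-related protein without catalytic activity, was past 2-fold in the other direction. It had 5.45, 26.6 and 11.0 TPM in A549-GFP and 20.1, 19.5 and 34.9 TPM in A549-TIPARP, a log2 difference of 1.03 with overlapping lines and a limma adjusted p of 0.994. This value turned on single libraries, at 0.48, 1.63 and 0.99 when replicate 1, 2 or 3 of A549-GFP was left out and 0.76 when replicate 3 of A549-TIPARP was. CA4 and CA5B had means of 1.40 and 2.54 TPM and log2 differences of 0.10 and -0.15. CA1, CA3, CA5A, CA6, CA7, CA8, CA10 and CA14 were at the floor in all 6 libraries. Among bicarbonate transporters SLC4A2, an anion exchanger, was the most abundant, with a mean of 129 TPM and a log2 difference of -0.15. SLC4A5, a sodium bicarbonate cotransporter, was below A549-GFP in every A549-TIPARP library, with a log2 difference of -0.56 (-0.26 when A549-GFP replicate 2 was left out) and a limma adjusted p of 0.994. Of the 12 other analysed genes of the list 6 had a higher and 6 a lower mean, where 40.1% of all analysed genes had a higher mean. The median log2 difference was -0.05, against -0.07 over all analysed genes. It was 0.19, against 0.05, when A549-GFP replicate 2 was left out.

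CERS4 (Entrez Gene ID 79603, chromosome 19, 8206736 to 8262421, plus strand, 12 exons) had 3.10, 7.51 and 3.44 TPM in replicates 1, 2 and 3 of A549-GFP and 11.2, 6.95 and 17.0 TPM in replicates 1, 2 and 3 of A549-TIPARP. A549-TIPARP replicate 2 was below A549-GFP replicate 2, so the lines overlapped. The mean log2 TPM was 2.11 ± 0.70 (SD, n = 3) and 3.45 ± 0.64 (SD, n = 3), a difference of 1.35, or 2.54-fold higher. CERS4 had the largest SD of the 6 genes in both lines, against a median SD of 0.44 in A549-GFP and 0.19 in A549-TIPARP for genes of the same decile of expression. Without A549-GFP replicate 2 the difference was 1.75, and over all libraries left out in turn it ran from 1.03 to 1.75.

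CERS4 was the least abundant of the 4 analysed ceramide synthases by mean TPM over the 6 libraries. CERS2, which prefers very long acyl chains, had a mean of 199.8 TPM and a log2 difference of -0.12. CERS6 had a log2 difference of -0.36. CERS5 had 12.9, 13.3 and 13.2 TPM in A549-GFP and 16.6, 17.3 and 15.0 TPM in A549-TIPARP. That difference of 0.31 had no overlap, and its limma adjusted p was 0.994. CERS1 and CERS3 were at the floor in all 6 libraries. DEGS2, a desaturase and hydroxylase of dihydroceramide, was the other gene of the ceramide list past 2-fold. It had 1.60, 4.11 and 2.66 TPM in A549-GFP and 8.32, 3.34 and 9.05 TPM in replicates 1, 2 and 3 of A549-TIPARP, so that A549-TIPARP replicate 2 lay within the range of A549-GFP, as for CERS4. Its log2 difference was 1.28, with 1.02 (SE 0.38) on log2(TPM + 1) and a limma adjusted p of 0.994. It was within 2-fold, at 0.93, without A549-GFP replicate 1. DEGS1, the main desaturase of the pathway, had a mean of 61.3 TPM and a log2 difference of 0.14. SPTSSA, a small subunit of serine palmitoyltransferase, and ASAH1, acid ceramidase, had log2 differences of -0.29 and -0.32. Of the 29 other analysed genes of the list 8 had a higher and 21 a lower mean, where 40.1% of all analysed genes had a higher mean. The median log2 difference was -0.11, against -0.07 over all analysed genes. Leaving out A549-GFP replicate 2 gave a median of 0.12, against 0.05 over all analysed genes, and turned ASAH1 to 0.23 and CERS2 to 0.23. It took SMPD1, acid sphingomyelinase, from 0.56 to 1.25, past 2-fold, and SPTSSB from -0.79 to 0.12. SPTSSB had 7.49 TPM in that library and at most 1.84 TPM in any other. It was past 2-fold lower without A549-GFP replicate 1 (-1.28) or 3 (-1.21) or A549-TIPARP replicate 3 (-1.08).

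ATP2A3 (Entrez Gene ID 489, chromosome 17, 3923870 to 3964464, minus strand, 21 exons) stood higher in A549-TIPARP. Its TPM was 2.12, 4.42 and 2.47 in replicates 1, 2 and 3 of A549-GFP and 8.80, 7.81 and 11.0 in replicates 1, 2 and 3 of A549-TIPARP. All A549-TIPARP libraries were above all A549-GFP libraries. The mean log2 TPM was 1.51 ± 0.56 (SD, n = 3) and 3.19 ± 0.25 (SD, n = 3), a difference of 1.68, or 3.20-fold higher. It was the least abundant of the 6 genes in both lines by geometric mean, at 2.85 and 9.11 TPM, and 1 added to each TPM brought its difference to 1.38. The difference was 1.99 without A549-GFP replicate 2.

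ATP2A2, which encodes the widely expressed SERCA2 pump, was far more abundant, with 176, 156 and 123 TPM in A549-GFP and 130, 140 and 119 TPM in A549-TIPARP. The log2 difference was -0.21, with overlapping lines. ATP2A1, the muscle form, had a mean of 1.52 TPM. The pump inhibitors PLN and SLN were at the floor in all 6 libraries. ORAI2, a store-operated calcium channel subunit, had 3.58, 5.23 and 3.16 TPM in A549-GFP and 7.24, 6.72 and 7.81 TPM in A549-TIPARP, with no overlap. Its log2 difference was 0.89, with 0.75 (SE 0.23) on log2(TPM + 1), a limma p of 0.0115 and an adjusted p of 0.956. The other two subunits of the family were ORAI1, with 46.7, 63.3 and 53.6 TPM in A549-GFP and 46.6, 46.6 and 40.5 TPM in A549-TIPARP, and ORAI3, with 12.1, 31.0 and 15.0 TPM in A549-GFP and 31.0, 21.1 and 43.5 TPM in A549-TIPARP. ORAI1 had a log2 difference of -0.28, and ORAI3 one of 0.78 with overlapping lines. CALR, the calcium-binding chaperone calreticulin, was the most abundant gene of the list with a mean of 633 TPM. It was higher in every A549-TIPARP library, with a log2 difference of 0.37 and a limma adjusted p of 0.994. CANX, calnexin, and SARAF, a brake on store-operated entry, had log2 differences of -0.15 and 0.03. Of the 15 other analysed genes 5 had a higher and 10 a lower mean, where 40.1% of all analysed genes had a higher mean. With all libraries none of the 15 was past 2-fold. Leaving out A549-GFP replicate 2 put ORAI2 at 1.11 and ORAI3 at 1.18, both past 2-fold. The list median went from -0.15 to 0.19, against -0.07 and 0.05 over all analysed genes. ORAI3 was also past 2-fold without A549-TIPARP replicate 2 (1.04).

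B4GALNT4 (Entrez Gene ID 338707, chromosome 11, 369499 to 382117, plus strand, 20 exons) had 5.42, 2.25 and 4.45 TPM in replicates 1, 2 and 3 of A549-GFP and 10.5, 9.29 and 14.6 TPM in replicates 1, 2 and 3 of A549-TIPARP, with no overlap. A549-GFP replicate 2 was the lowest library, whereas it was the highest A549-GFP library for CPS1, CA2, CERS4 and ATP2A3. The mean log2 TPM was 1.92 ± 0.66 (SD, n = 3) and 3.49 ± 0.34 (SD, n = 3), a difference of 1.57, or 2.97-fold higher. Without A549-GFP replicate 2 the difference was 1.19.

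B4GALNT3, the other enzyme that forms LacdiNAc, did not pass the filter, with a mean of 1.05 TPM, and B4GALNT2 was at the floor in all 6 libraries. CHST8 and CHST9, which sulfate LacdiNAc, were also at the floor throughout. B4GALNT1, the synthase of GM2 and GD2 gangliosides, had 22.9, 19.3 and 20.8 TPM in A549-GFP and 21.1, 21.9 and 17.4 TPM in A549-TIPARP, a log2 difference of -0.07. The galactosyltransferases of the B4GALT family, which use several acceptors, had log2 differences from -0.23 to 0.12. B4GALT1, B4GALT4 and B4GALT5 had log2 differences of -0.12, 0.11 and 0.07, and those of B4GALT2, B4GALT3, B4GALT6 and B4GALT7 were -0.01, -0.23, -0.17 and 0.12. ST6GAL1, a sialyltransferase, had 10.3, 31.8 and 6.94 TPM in A549-GFP and 11.8, 7.66 and 19.9 TPM in A549-TIPARP. None of the 9 other analysed genes of the list was past 2-fold, with all libraries or with any 1 left out, and none separated the lines. Leaving out A549-GFP replicate 2 took ST6GAL1 from -0.11 to 0.52.

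**Figure D2:**
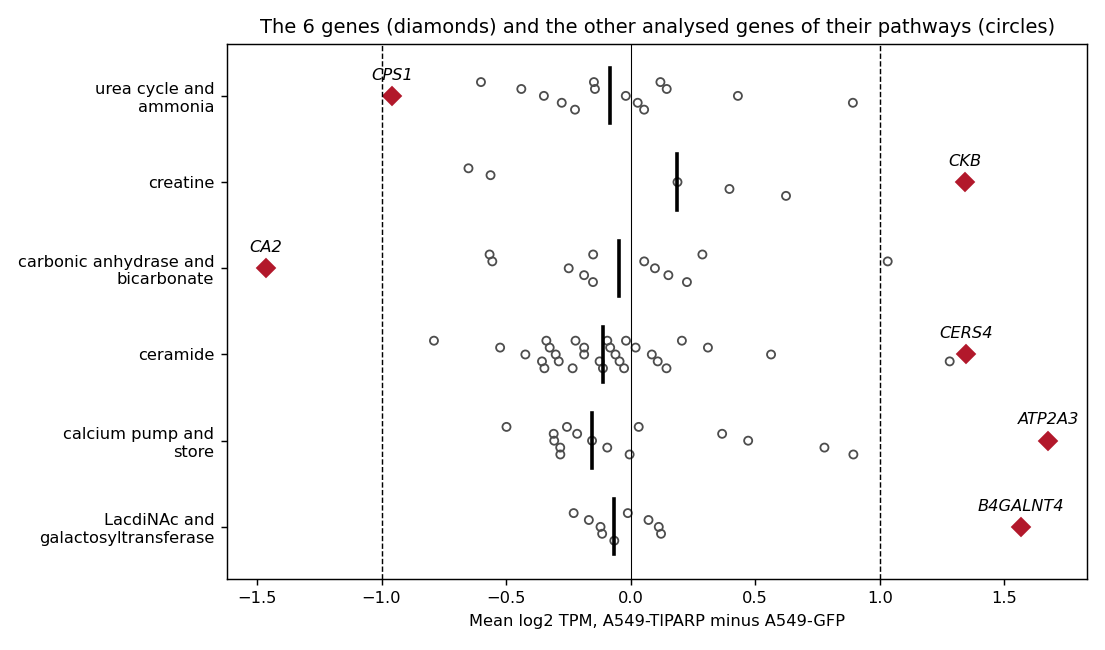
Difference of the mean log2 TPM, A549-TIPARP minus A549-GFP, for the 6 genes (red diamonds) and the 84 other analysed genes of their pathways (circles), with the median of the others as a vertical bar and 2-fold as dashed lines. CA11 at 1.03 and DEGS2 at 1.28 are the only circles past 2-fold, both within it without A549-GFP replicate 1. GLUL, SMPD1, ORAI2 and ORAI3 also pass it without A549-GFP replicate 2, as do GLUL without A549-TIPARP replicate 1, and GLUL and ORAI3 without A549-TIPARP replicate 2. SPTSSB passes it on the lower side without A549-GFP replicate 1 or 3 or A549-TIPARP replicate 3. The 6 list medians run from -0.15 to 0.19.

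Over the 6 lists, 41 genes did not pass the filter, 33 of them at the floor in all 6 libraries, and 84 genes other than the 6 were tested. By limma on log2(TPM + 1) over all 13181 genes, 0 of the 84 had an adjusted p under 0.05, against 2 of all analysed genes (0.0152%), and 0 had one without the variance trend. At an unadjusted p under 0.05 there were 2 of the 84, DEGS2 and ORAI2, which is 2.38%, against 3.85% of the analysed genes. With each library left out the limma p ran from 0.00375 to 0.108 for DEGS2, above 0.05 without A549-GFP replicate 1 or 3 or A549-TIPARP replicate 1 or 3, and from 0.000948 to 0.0446 for ORAI2. Past 2-fold there were 2 higher genes (2.38%, against 1.53%) and 0 lower ones. Leaving out A549-GFP replicate 2 gave 6 higher genes (7.14%, against 2.91% of all analysed genes) and 7 at an unadjusted p under 0.05 (8.33%, against 10.5%), and leaving out A549-GFP replicate 3 gave 11 such genes (13.1%, against 8.23%). With any library other than A549-GFP replicate 2 left out there were from 0 to 4 higher genes, 0 or 1 lower, and 0 with an adjusted p under 0.05. Of the 84, 5 were above A549-GFP in each A549-TIPARP library (5.95%, against 5.36%) and 5 below it (5.95%, against 3.54%). The median log2 difference of the 84 genes was -0.10, against -0.07 over all analysed genes, and 0.12 against 0.05 without A549-GFP replicate 2.

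By geometric mean the order of levels in A549-GFP cells was CPS1 at 135 TPM, CA2 at 39.3, CKB at 18.5, CERS4 at 4.31, B4GALNT4 at 3.79 and ATP2A3 at 2.85. In A549-TIPARP cells it was CPS1 at 69.8 TPM, CKB at 46.9, CA2 at 14.2, B4GALNT4 at 11.2, CERS4 at 11.0 and ATP2A3 at 9.11. The last 3 genes overlapped each other over the libraries of each line, so their order is within the spread. In A549-TIPARP cells CA2, from 12.8 to 16.4 TPM, also overlapped B4GALNT4 and CERS4. No other neighbours in these orders overlapped. From the lowest to the highest library, CPS1 ranged over 56.8 to 218 TPM and ATP2A3 over 2.12 to 11.0 TPM.

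**Figure D3:**
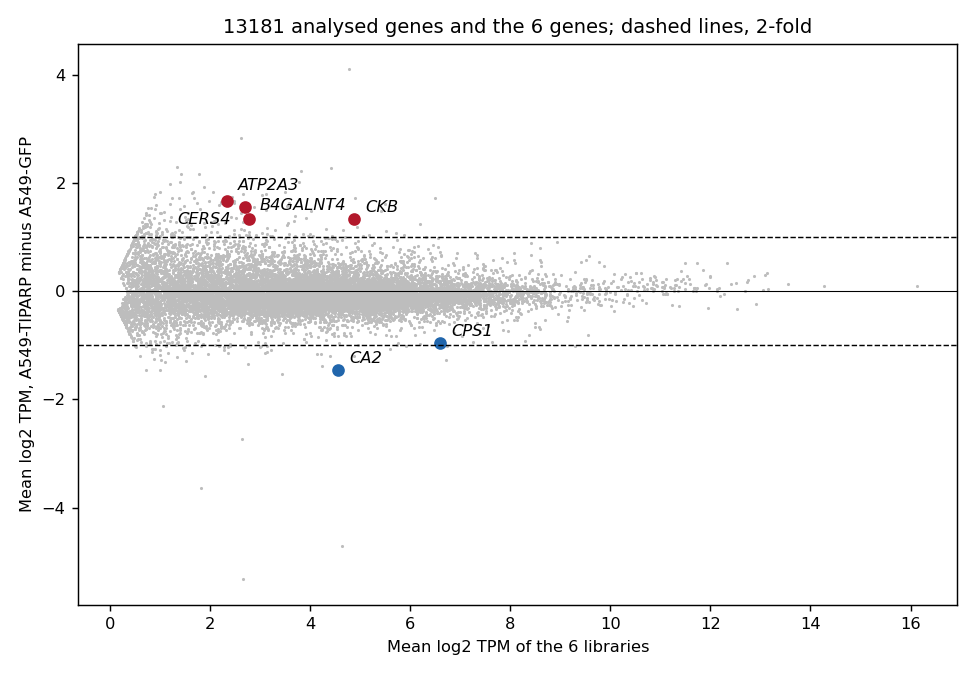
Mean log2 TPM of the 6 libraries (x axis) against the difference of the line means, A549-TIPARP minus A549-GFP (y axis), for the 13181 analysed genes (grey) and the 6 genes (red where higher, blue where lower). ATP2A3, B4GALNT4 and CERS4 lie at low levels, CKB and CA2 at middle levels and CPS1 at a high level, just inside the dashed line of 2-fold.

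The chromosomal surroundings of the 6 genes were examined with the RefSeq coordinates, which matched 99.5% of the analysed genes. Within 500 kb of the 6 genes lay 94 analysed genes, with a median log2 difference of 0.02. Of these 4 were past 2-fold higher (4.26%, against 1.53% of all analysed genes) and 0 lower. By limma 0 had an adjusted p under 0.05 and 7 an unadjusted one (7.45%, against 3.85%). With each library left out there were from 4 past 2-fold higher without A549-TIPARP replicate 3 (4.26%, against 1.84% of all analysed genes) to 8 without A549-TIPARP replicate 2 (8.51%, against 2.25%). The unadjusted count ran from 2 without A549-TIPARP replicate 3 (2.13%, against 2.42%) to 17 without A549-GFP replicate 2 (18.1%, against 10.5%). LANCL1, whose gene body lies 0.101 kb before that of CPS1, had 70.2, 96.0 and 51.5 TPM in A549-GFP and 50.3, 55.8 and 69.4 TPM in A549-TIPARP, a log2 difference of -0.28 against -0.96 for CPS1. MARK3 and TRMT61A, the analysed genes nearest to CKB, had log2 differences of -0.03 and -0.23. CAMKK1 and ZZEF1, on either side of ATP2A3, had 0.21 and -0.48, and ELAVL1 and CD320, nearest to CERS4, had -0.12 and -0.28. None of these 7 neighbours was past 2-fold.

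B4GALNT4 lies near the interferon-induced IFITM genes on chromosome 11. IFITM3, 48.6 kb before B4GALNT4, had 2.73, 13.3 and 2.16 TPM in A549-GFP and 12.4, 7.23 and 22.2 TPM in A549-TIPARP. IFITM2, 60.1 kb before it, had 9.97, 40.7 and 10.9 TPM in A549-GFP and 53.5, 31.2 and 97.5 TPM in A549-TIPARP. Both overlapped between the lines, with limma adjusted p of 0.994 and 0.983, and in A549-GFP replicate 2, where they were highest in that line, B4GALNT4 was lowest. Their log2 differences were 1.55 and 1.74. With each library left out they ran from 1.06 (without A549-GFP replicate 3) to 2.37 (without A549-GFP replicate 2) for IFITM3 and from 1.32 to 2.39 for IFITM2. PKP3, a desmosomal plakophilin and the nearest gene after B4GALNT4, had a log2 difference of -0.13. Of the other neighbours past 2-fold, CTXN1, 283 kb before CERS4, had 5.33 and 5.81 TPM in replicates 1 and 3 of A549-GFP, the floor in replicate 2, and 11.2, 10.7 and 8.33 TPM in A549-TIPARP. The difference of 1.67 on the log2 scale was 0.84 without A549-GFP replicate 2. EXOC3L4, 409 kb before CKB, was at 1.08, with A549-GFP replicate 3 at the floor, and within 2-fold without that library (0.87) or without A549-TIPARP replicate 3 (0.82). The nearest analysed gene to CA2 was CA13.

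**Figure D4:**
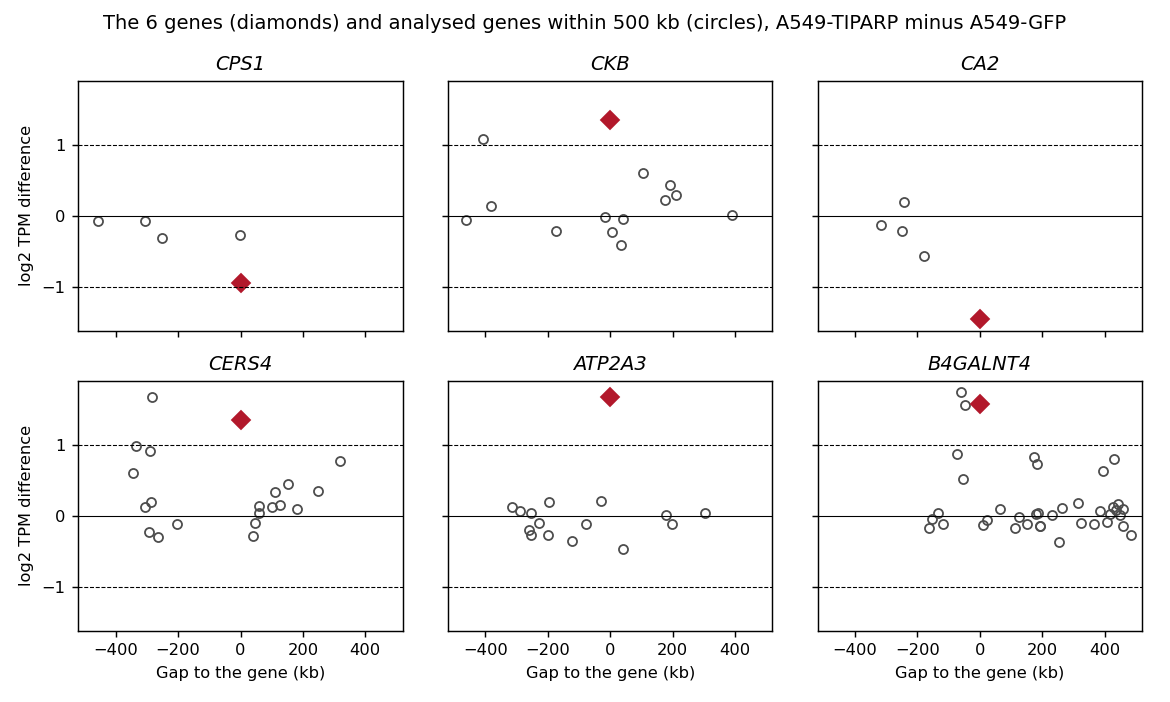
Difference of the mean log2 TPM, A549-TIPARP minus A549-GFP, of each of the 6 genes (red diamond, at 0) and of the analysed genes within 500 kb (circles), by the gap in kb between gene bodies. The circles past 2-fold are IFITM2 at 1.74 and IFITM3 at 1.55 near B4GALNT4, CTXN1 at 1.67 near CERS4 (0.84 without A549-GFP replicate 2, which is at the floor) and EXOC3L4 at 1.08 near CKB (0.87 without A549-GFP replicate 3, also at the floor).

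Reads shared with other genes were looked for by sequence. None of the windows of 50 bases in their canonical GENCODE 44 transcripts occurred, on either strand, in a transcript of another gene, and no annotated gene shared an exon base with them. CPS1-IT1, inside CPS1, and CA3-AS1, which overlaps CA2 on the opposite strand, were at the floor in all 6 libraries.

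The genes with the most similar profile were taken by Pearson r of log2(TPM + 1) over the 6 libraries among 10967 other genes with a TPM above 2 in all 6. These r are descriptions, since all points share the libraries and A549-GFP replicate 2 stands apart. For CPS1 they were PDE10A (r = 0.996) and TMEM164 (0.993), with 57 genes above 0.95. For CA2 they were TMEM184A (r = 0.984), PLA2G4A (0.984) and TBL2 (0.982), with 38 genes above 0.95. For CKB they were CFAP36 (r = 0.986), IFT22 (0.985) and APLP1 (0.975), with 22 above 0.95, the fewest of the 6. ATP2A3 had PDGFRL (r = 0.998), ZNF362 (0.997) and BEX3 (0.994), with 64 above 0.95. CERS4 had CTSH (r = 0.994), GSDMD (0.992) and IFITM2 (0.992), with 91 above 0.95. B4GALNT4 had PDLIM1 (r = 0.997), SFRP4 (0.991) and ANXA4 (0.987), with 32 above 0.95.

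Of the A549-GFP libraries, replicate 2 deviated from the mean of the other two by 1.03 for CPS1, 1.11 for CA2, 1.20 for CERS4 and 0.95 for ATP2A3 on the log2 scale. For CKB and B4GALNT4 it deviated by -0.44 and -1.12. Leaving it out brought the differences of CPS1, CA2, CKB and B4GALNT4 nearer to 0 and those of CERS4 and ATP2A3 further from 0. No difference changed direction with any library left out. For CKB, CA2, ATP2A3 and B4GALNT4 it could not, since their lines did not overlap. CPS1 was the only one of the 6 that lay within 2-fold with any library left out. The part of A549-GFP replicate 2 in the differences was not tested.

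**Figure D5:**
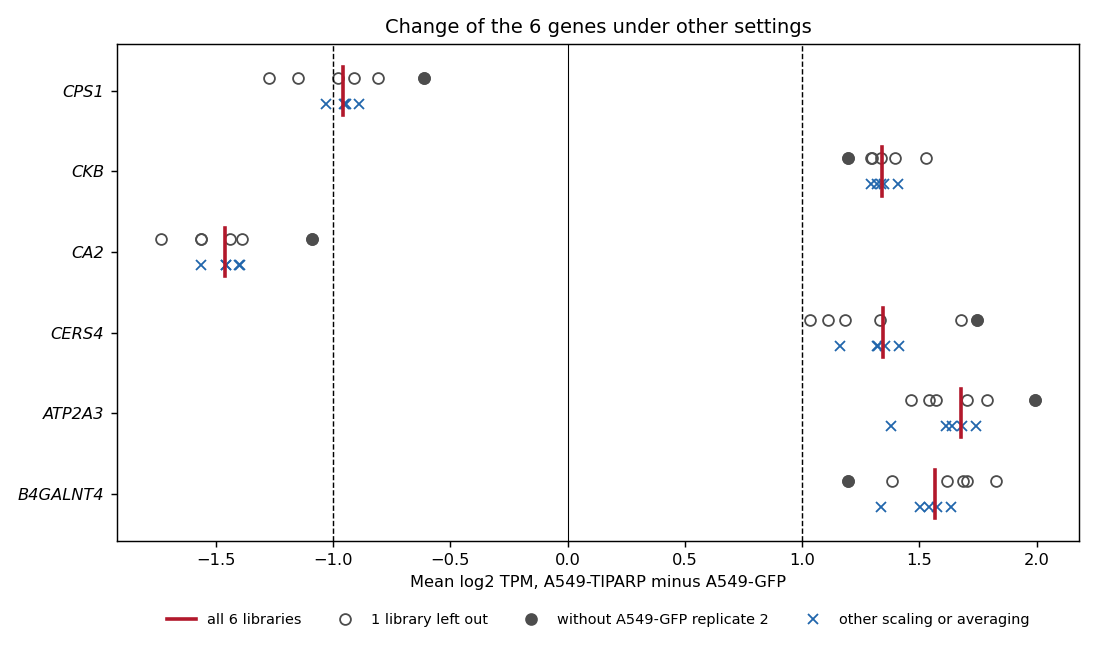
Difference of the mean log2 TPM, A549-TIPARP minus A549-GFP, of the 6 genes with all 6 libraries (red bar), with 1 library left out (circles, filled for A549-GFP replicate 2) and with another scaling, pseudocount or averaging (crosses). CPS1 lies on both sides of the 2-fold line, from -1.28 to -0.61, and the other 5 genes stay beyond it throughout.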

How the data were processed

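Libraries were made with a TruSeq Stranded mRNA kit and sequenced as paired-end reads on a NovaSeq instrument. Using Strand NGS with default settings, the authors mapped them to the human transcriptome of hg38 and deposited 1 table per library with log2 TPM per gene, TPM below 1 being set to 1. The deposited log2 values hold no read counts, so depth is unknown. Software version, annotation release and use of strand in counting are not given in the sources used here. Libraries were assigned to lines by sample title. The 6 genes and the lists were chosen with earlier results of these data known. Entries with TPM above 2 in at least 1 library were kept, as in the study. Differences were taken between the mean deposited log2 values. limma 3.58.1 (R 4.3.3) with a variance trend was run on log2(TPM + 1) of all 13181 genes with Benjamini-Hochberg adjustment and checked on simulated data. There 29 of 88 genes with a log2 change of 1 had an adjusted p under 0.05, and 94 of 112 with one of 2. The simulated noise was independent between genes, with no library standing apart. An adjusted p above 0.05 therefore does not show that a level was equal. P-values measure only the spread between these libraries. Genes named besides the 6 are, in each list, those past 2-fold, those with an unadjusted limma p under 0.05, the 3 most abundant and the family of the gene. In each neighbourhood they are the nearest and those past 2-fold, beside the 3 most similar profiles, of which 1 is not reported here. Genes named outside this rule were chosen after their values were seen. Alternatives were median-ratio rescaling, removal of small RNA entries, pseudocounts of 1 and 0.1, arithmetic means, filters, no trend, a replicate block and each library left out. Coordinates and exons are from GENCODE 44, neighbours and promoters from RefSeq GRCh38.p14, the same build. Promoter windows were printed for 3 of the 6 genes. Python 3.11.15 was used otherwise.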

Additional observations from a re-analysis of the deposited data

How the results depend on the processing

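Of the 66 values that the alternatives gave for the 6 genes, all kept their direction and moved by less than 1 SD pooled over both lines. With 1 of 3 libraries of a line left out, a shift of 1 pooled SD was not possible, whatever the values. Nor could the direction then change for CKB, CA2, ATP2A3 and B4GALNT4, whose lines did not overlap. These parts of the check carry no weight. Some values moved by more than the SD of A549-TIPARP alone, as CA2 did without A549-GFP replicate 2 (from -1.46 to -1.09, SD 0.18). The number of genes with a limma adjusted p under 0.05 was 2, and 1 without a filter. The titles number the libraries of each line 1 to 3 as experiments and do not say what a number marks. Same-numbered libraries deviated from their line means with r (across genes) of 0.41, -0.49 and -0.36. A549-GFP replicate 2, which stands apart, shifts the mean of its line in all 3 of these values. Over all pairs between the lines r was highest, at 0.60, for A549-GFP replicate 2 with A549-TIPARP replicate 3. It was lowest, at -0.62, for A549-GFP replicate 1 with A549-TIPARP replicate 3. A549-TIPARP replicate 3 thus deviated from its line on the same side as A549-GFP replicate 2, and why was not tested. The libraries were not treated as pairs. With the replicate block the number was 1. With each library left out it ran from 1 to 3. Genes with an unadjusted limma p under 0.05 numbered 508, and 786 with median-ratio rescaling, 1379 without A549-GFP replicate 2, 1085 without A549-GFP replicate 3, 253 without A549-TIPARP replicate 1 and 319 without A549-TIPARP replicate 3. Genes more than 2-fold higher numbered 202, became 78 with 1 added to TPM, and ran from 228 to 383 with each library left out (383 without A549-GFP replicate 2, 324 without A549-GFP replicate 1). Genes more than 2-fold lower numbered 57. They became 37 with median-ratio rescaling, 20 with 1 added to TPM and 143 with arithmetic means of TPM, and ran from 39 to 200 with each library left out, with 200 without A549-GFP replicate 3, 153 without A549-GFP replicate 1 and 103 without A549-TIPARP replicate 3. The median of the LacdiNAc and galactosyltransferase list, -0.07, ran from -0.078 to 0.11 with each library left out. Without A549-GFP replicate 2, 5 of the 6 list medians had the other sign. The cause was not tested. The values of CA11, DEGS2, CTXN1, EXOC3L4, IFITM2 and IFITM3 with each library left out, and the counts and medians over the lists and neighbours, were added after seeing the data. Without counts, the smallest TPM a library could show is unknown beyond the floor.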
